A study of Mus musculus with 3 samples.

Results

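Lysyl oxidases are copper-dependent amine oxidases that oxidise lysine residues of collagen and elastin, so that neighbouring chains form covalent cross-links. In the heart, fibrillar collagens give the interstitium its tensile strength, elastic fibres give vessel walls and valves their recoil, and the cross-links made by these enzymes set how stiff that matrix is and how well it resists degradation. The family was taken as its 5 mouse genes, *Lox*, *Loxl1*, *Loxl2*, *Loxl3* and *Loxl4*, chosen by name out of 27998 genes counted, and was examined by cell class and by phase of pressure overload. The members were put together because *Lox* had been seen to be higher in fibroblasts (FBs) at 2 weeks, so the FB values of 2 weeks against 0 weeks describe what chose them and carry no test. All 5 genes had unique molecular identifiers (UMIs, each standing for 1 captured transcript), and 4 of the 5 had enough for ratios.

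Droplet-based 3′ single-cell RNA sequencing had been done on non-cardiomyocytes (non-CMs) from the ventricles of wild-type C57BL/6JJcl mice. The 3 libraries were healthy hearts (control, 0 weeks), hearts in adaptive hypertrophy 2 weeks after transverse aortic constriction (TAC, a ligature that narrows the aortic arch and loads the left ventricle with pressure) and hearts in heart failure 12 weeks after TAC. TAC was performed on male mice aged 8 weeks per the study's methods, while the age of the healthy mice and the number of hearts behind each library are not given in the sources used here. Each phase is 1 library, so phase and library cannot be told apart, no test between phases exists, and every interval below is a 95% interval for counting error only. Kept cells numbered 3892, 2231 and 792 at 0, 2 and 12 weeks, with medians of 2589, 1495 and 1434 UMIs per cell.

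Cells were assigned to endothelial cells (ECs), FBs, mural cells (smooth muscle and pericytes), blood cells or neural cells by the class whose marker genes gave at least 70% of the cell's marker UMIs. FBs numbered 1241, 93 and 188 at 0, 2 and 12 weeks. Their median depth was 2960, 1737 and 2495.5 UMIs, and their median mitochondrial share was 2.60%, 7.52% and 4.63%. The 2-week FBs were thus few and shallow, and 68 of the 93 held 1000 UMIs or more. Collagen genes left out of the gate (*Col1a1*, *Col1a2*, *Col3a1*) stood at 5942, 14448 and 4376 CPM (UMIs of the gene per 1000000 UMIs of the class) in FBs, against 71.3, 24.5 and 50.2 in ECs. In 2-week FBs 5 of the 14 blood markers had a UMI (31.1 CPM in sum), and all 5 neural markers were at 0. Of the 9 EC markers 8 had a UMI (327 CPM in sum, beside 263 in healthy FBs), with *Cldn5* at 0. Of the 9 mural markers 5 had a UMI (93.3 CPM in sum, beside 75.5 in healthy FBs), with *Myh11*, *Vtn*, *Higd1b* and *Cnn1* at 0. The 4 EC check genes summed to 261, 206 and 277 CPM in FBs, and the 4 mural check genes to 277, 389 and 312.

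*Lox* (ENSMUSG00000024529, chromosome 18, 52516067 to 52529867, minus strand, GRCm38) encodes the founding enzyme of the family, a secreted proenzyme whose propeptide is cut off by procollagen C-proteinases. *Loxl1* (ENSMUSG00000032334, chromosome 9, 58287738 to 58313186, minus strand) encodes the paralog best known for elastic fibre upkeep, where it binds fibulin-5. *Loxl2* (ENSMUSG00000034205, chromosome 14, 69609068 to 69695834, plus strand), *Loxl3* (ENSMUSG00000000693, chromosome 6, 83034173 to 83052562, plus strand) and *Loxl4* (ENSMUSG00000025185, chromosome 19, 42593982 to 42612813, minus strand) form the branch with scavenger receptor cysteine-rich domains. *Lox* overlaps an antisense gene, *Loxl2* the antisense gene *Gm27177*, and *Loxl3* the opposite-strand gene *Htra2*; the strand setting of the counting is not given in the sources used here, so reads shared with these neighbours could not be separated.

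FBs carried most of the family. They were 22.0% of the kept cells and held 84.3% of all UMIs of the 5 genes. The split was not alike among members: FBs held 93.4% of the *Loxl1* UMIs (2730 of 2922), 80.1% of *Loxl3* (222 of 277), 79.5% of *Loxl2* (976 of 1228) and 37.7% of *Lox* (158 of 419). *Lox* was the member with a wide spread, with 27.9% of its UMIs in mural cells and 21.2% in ECs. *Loxl4* had 7 UMIs in all cells together, 3 of them in FBs, and is not described further.

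In healthy FBs *Lox* was scarce: 77 UMIs in 1241 cells, or 18.8 CPM (14.9 to 23.5). At 2 weeks it stood at 225 CPM (171 to 291; 58 UMIs in 93 cells), and at 12 weeks at 37.0 (23.4 to 55.5; 23 UMIs in 188 cells). The 2-week interval lies above the other two, and the 12-week interval begins just below the upper end of the healthy one. The ratio of 2 weeks to 0 weeks was 12 (8.37 to 17.1), that of 12 weeks to 0 weeks 1.97 (1.18 to 3.17), and that of 12 weeks to 2 weeks 0.164 (0.0966 to 0.270). Of the 9941 genes with at least 20 UMIs in FBs over both phases, 4 had a larger 2-week ratio than *Lox*. That ratio chose the family, so its rank is a description only.

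*Loxl3* followed the same order of phases. Its FB level was 31.5 CPM (26.3 to 37.5; 129 UMIs) at 0 weeks, 171 (124 to 230; 44 UMIs) at 2 weeks and 78.8 (58.3 to 104; 49 UMIs) at 12 weeks, 3 intervals that do not overlap. The 2-week level was 5.42 times (3.76 to 7.69) and the 12-week level 2.50 times (1.76 to 3.50) the healthy one. In the same 2-week contrast 28 genes had a larger ratio, again a description only.

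*Loxl1* and *Loxl2* were already plentiful in healthy FBs and were near 2-fold higher at 2 weeks. *Loxl1* stood at 531 CPM (509 to 553; 2171 UMIs), 1034 (913 to 1166; 266 UMIs) and 471 (419 to 528; 293 UMIs) at 0, 2 and 12 weeks, a 2-week ratio of 1.95 (1.71 to 2.21) and a 12-week ratio of 0.888 (0.783 to 1.00). *Loxl2* stood at 198 (185 to 213; 812 UMIs), 389 (316 to 473; 100 UMIs) and 103 (79.3 to 131; 64 UMIs), a 2-week ratio of 1.96 (1.58 to 2.41) and a 12-week ratio of 0.519 (0.396 to 0.669). The healthy and 12-week intervals of *Loxl1* overlap, whereas the 3 intervals of *Loxl2* do not. So all 4 measured members were higher in FBs at 2 weeks than at 0 weeks, and at 12 weeks *Lox* and *Loxl3* were above, *Loxl1* near and *Loxl2* below the healthy level.

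At a 2-fold limit, 2 of the 4 measured members, *Lox* and *Loxl3*, were higher at 2 weeks, where 9.73% of all genes were that much higher and 14.5% that much lower. Nothing is read from that count, because the 2-week contrast chose the family. At 12 weeks *Loxl3* alone passed 2-fold upwards, with a background of 6.84%, and none passed it downwards, with a background of 7.16%. The alternative settings put *Lox* between 1.86 and 2.91 and *Loxl2* between 0.431 and 0.537 at 12 weeks, so these counts depend on the setting. The median gene sat at a log2 ratio of -0.02 at 2 weeks and 0.02 at 12 weeks on this scale, which is relative to the class total.

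**Figure D1:**
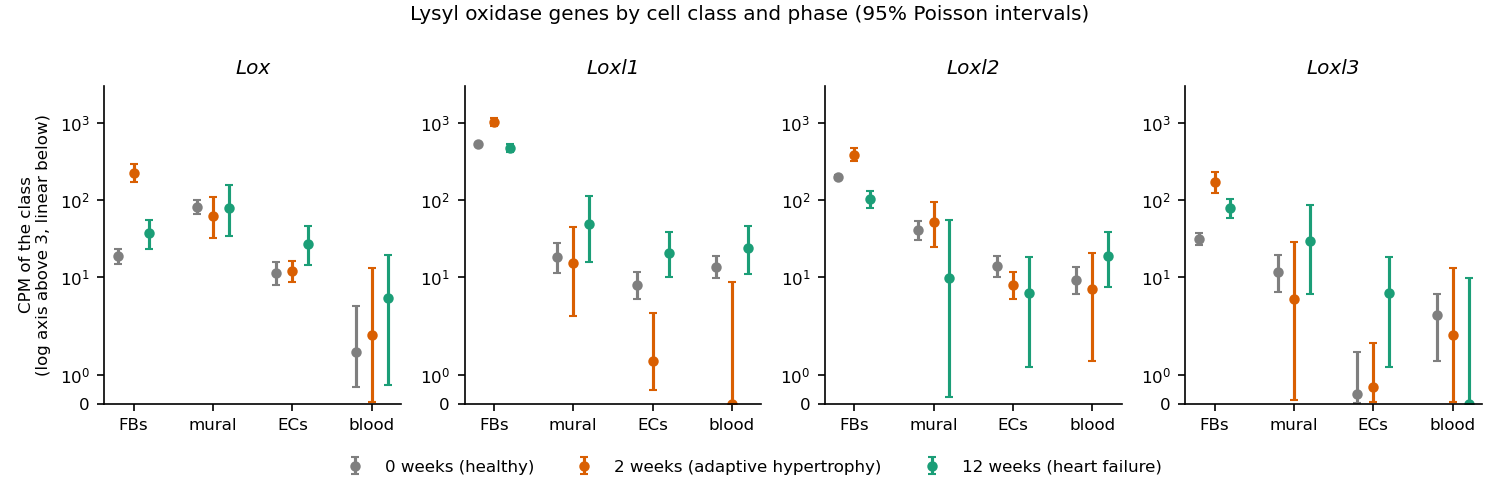
Level of each lysyl oxidase gene (CPM, log axis above 3 and linear below) in FBs, mural cells, ECs and blood cells at 0, 2 and 12 weeks, with 95% Poisson intervals for counting error. In FBs the 2-week point is the highest for all 4 genes (225 CPM for *Lox* against 18.8 and 37.0). The 3 mural points of *Lox* lie between 62.1 and 81.3, the 12-week one resting on 8 UMIs in 2 cells.

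The higher 2-week levels went with more FBs holding a UMI. *Lox* was found in 5.32% of healthy FBs (66 of 1241), 25.8% of 2-week FBs (24 of 93) and 9.04% of 12-week FBs (17 of 188), and *Loxl3* in 9.02%, 31.2% and 17.0%. Blood cells, which should lack *Lox*, gave 0.209%, 0.505% and 1.12% for it. Brought to 1000 UMIs per cell, with shallower cells left out, the *Lox* shares in FBs became 1.80%, 14.3% and 4.72% and the *Loxl3* shares 3.19%, 16.1% and 6.55%, in the same order of phases. *Loxl1* was in 72.1%, 77.4% and 68.1% of FBs, or 40.1%, 58.2% and 40.8% at equal depth, and *Loxl2* in 37.4%, 41.9% and 20.2%, or 16.2%, 29.5% and 8.78%.

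With 93 FBs at 2 weeks, few cells decide these levels. Of the 58 *Lox* UMIs 32 lay in 5 cells (55.2%), with up to 12 in 1 cell. The like share at 2 weeks was 45.0% for *Loxl2*, 36.4% for *Loxl3* and 27.8% for *Loxl1*. With the richest cell of each phase left out, a choice made after the data were seen, the *Lox* ratio was 10.8 (7.31 to 15.9) and the *Loxl3* ratio 4.82 (3.23 to 7.03).

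The make-up of the family in FBs shifted with the phases. *Lox* was 2.41% of the lysyl oxidase UMIs of healthy FBs (77 of 3191), 12.4% at 2 weeks (58 of 468) and 5.35% at 12 weeks (23 of 430). *Loxl3* went from 4.04% to 9.40% and 11.4%, and *Loxl2* from 25.4% to 21.4% and 14.9%. *Loxl1* was the bulk at every phase, at 68.0%, 56.8% and 68.1%. These are shares of tags captured at the 3′ end, and they are compared between phases within a gene rather than between genes.

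**Figure D2:**
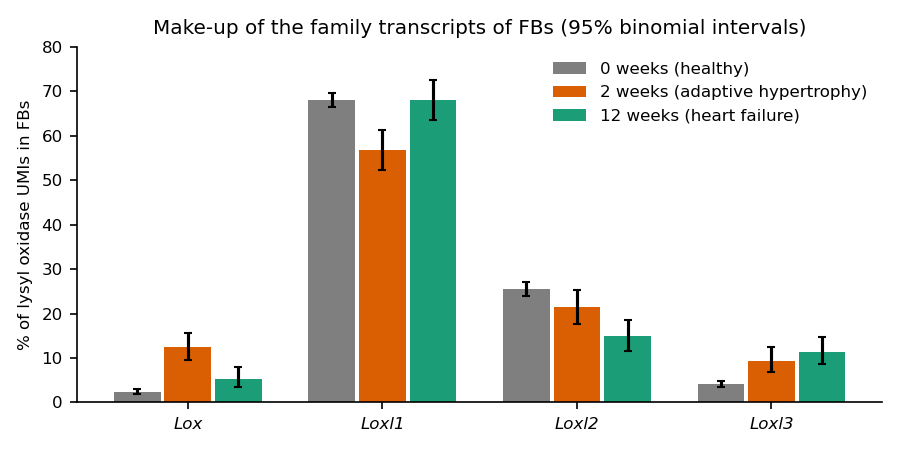
Share of each gene among the lysyl oxidase UMIs of FBs (percent, y axis) at 0, 2 and 12 weeks, with exact 95% binomial intervals. The *Lox* bars go from 2.41% to 12.4% and 5.35%, and the *Loxl2* bars step down from 25.4% to 14.9%.

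*Postn* encodes periostin, a matricellular protein of activated FBs that binds collagen and brings the proteinase Bmp1 to the *Lox* proenzyme. Its own level in FBs was 756, 4256 and 1007 CPM at 0, 2 and 12 weeks. FBs with at least 1 *Postn* UMI (Postn-positive) were 437 of 1241 (35.2%), 66 of 93 (71.0%) and 79 of 188 (42.0%), or 23.9%, 68.4% and 30.5% at 1000 UMIs per cell. Postn-positive FBs were the deeper cells, with medians of 3784 against 2590.5, 2721 against 1171 and 3415 against 1803 UMIs, so levels are given in CPM with *Postn* itself left out of the totals.

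At 2 weeks *Lox* sat almost wholly in Postn-positive FBs. They held 56 of its 58 UMIs, or 96.6% (88.1% to 99.6%), and 81.9% of all FB UMIs. The level was 267 CPM (202 to 347) in Postn-positive and 43.1 (5.22 to 156) in Postn-negative FBs, a ratio of 6.20 (1.64 to 52.4) that rests on 2 UMIs in the negative cells. With cells under 1000 UMIs left out and the others given equal weight at full depth, the ratio was 2.63. With *Postn* called after the same cells were thinned to 1000 UMIs, it was 5.01 (2.00 to 16.1). In a finer split made after the data were seen, FBs with 5 or more *Postn* UMIs (39 cells) held 55 of the *Lox* UMIs at 353 CPM (266 to 459), those with 1 to 4 (27 cells) held 1, and those with none (27 cells) held 2. These groups had medians of 3312, 1342 and 1171 UMIs per cell, and the middle one stood at 18.6 CPM (0.471 to 104). Nearly all *Lox* UMIs at 2 weeks were thus in cells with much *Postn*, which were also the deepest. The parts of depth and of a few rich cells in this were not tested.

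The 3 paralogs also had ratios above 1 at 2 weeks. *Loxl1* stood at 1135 CPM in Postn-positive and 603 in Postn-negative FBs, a ratio of 1.88 (1.27 to 2.89). The ratio was 1.79 (0.954 to 3.72) for *Loxl2* and 1.73 (0.680 to 5.61) for *Loxl3*, intervals that include 1. Postn-positive FBs held 89.5% of the *Loxl1*, 89.0% of the *Loxl2* and 88.6% of the *Loxl3* UMIs. At a 2-fold limit, passed by 13.5% of the 2025 genes with 20 or more UMIs in these cells, *Lox* was the 1 member above it. That count depends on the setting, since the alternatives put *Loxl1* between 1.42 and 2.94, *Loxl2* between 1.29 and 4.03 and *Loxl3* between 0.985 and 3.61, and whether the ratio of *Lox* differs from those of the paralogs was not tested.

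In healthy FBs the split by *Postn* was shallow for all of them: *Lox* 21.9 against 16.5 CPM (ratio 1.33, 0.828 to 2.13), *Loxl1* 1.11 (1.02 to 1.20), *Loxl2* 1.64 (1.43 to 1.89) and *Loxl3* 1.54 (1.07 to 2.21). None reached 2-fold, where 2.49% of genes did. At 12 weeks *Loxl2* was higher on the Postn-positive side, at 136 against 52.8 CPM (ratio 2.58, 1.38 to 5.17), where 7.77% of genes were 2-fold higher. *Lox* was on the other side, with 8 UMIs in Postn-positive FBs (21.3 CPM) and 15 in Postn-negative FBs (60.9), a ratio of 0.350 (0.129 to 0.880), where 3.79% of genes were 2-fold lower. This order turned when FBs were split by *Thbs4*, *Cilp* or *Ddah1* in place of *Postn* (2.53, 0.986 to 7.28), and with *Postn* called at equal depth the ratio was 0.827 (0.285 to 2.15).

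More Postn-positive cells and more *Lox* per Postn-positive cell are separate measures, and both were higher at 2 weeks than at 0 weeks. Within Postn-positive FBs *Lox* was 12.2 times (7.96 to 18.9) the healthy level at 2 weeks, where 8.34% of genes were 2-fold higher, and *Loxl3* was 4.73 (3.11 to 7.10), *Loxl1* 2.02 (1.75 to 2.33) and *Loxl2* 1.66 (1.31 to 2.09). Within Postn-negative FBs *Loxl3* was 4.21 (1.32 to 10.4), *Lox* 2.62 (0.306 to 10.1), *Loxl2* 1.53 (0.756 to 2.77) and *Loxl1* 1.19 (0.786 to 1.73), with a background of 17.1%. The interval of *Loxl3* lay above 1 on both sides of the split, but its Postn-negative value rests on 5 UMIs in 4 of 27 cells. The Postn-negative intervals of the other 3 include 1, those of *Lox* and *Loxl3* overlap, and a difference between members was not tested. Both sides are parts of the contrast that chose the family, so nothing is read from the background shares. Healthy levels weighted by the 2-week shares of both kinds of FB give 20.9 CPM for *Lox*, against 226 observed on this scale, and 36.8 against 172 for *Loxl3*, 552 against 1038 for *Loxl1* and 237 against 390 for *Loxl2*.

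**Figure D3:**
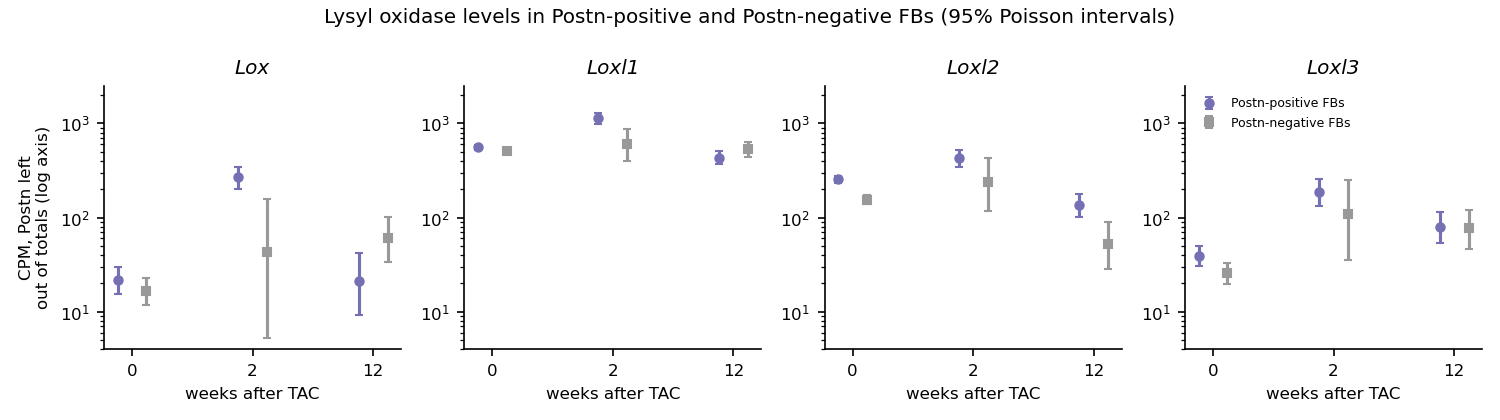
Level of each gene in Postn-positive FBs (circles) and Postn-negative FBs (squares) at 0, 2 and 12 weeks after TAC (CPM with *Postn* left out of the totals, log axis), with 95% Poisson intervals. At 2 weeks the *Lox* points stand apart, 267 against 43.1, and at 12 weeks their order is turned, 21.3 against 60.9.

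The same cells often held several members. Of the 24 FBs with a *Lox* UMI at 2 weeks all 24 had *Loxl1*, 22 had *Postn*, 14 had *Loxl2* and 13 had *Loxl3*, whereas of the 66 such healthy FBs 48 had *Loxl1*, 31 *Postn*, 29 *Loxl2* and 7 *Loxl3*. *Loxl3* was thus in 54.2% of the *Lox*-holding FBs at 2 weeks and in 10.6% of those at 0 weeks, beside 31.2% and 9.02% of all FBs. At 12 weeks 5 of 17 held both. Deeper cells hold more of every gene, so these counts are a description.

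FBs were also split by the marker pair or trio with the most UMIs. At 2 weeks *Lox* was 394 CPM (259 to 573) in the 22 FBs led by *Thbs4*, *Cilp* and *Ddah1*, 232 (149 to 346) in the 32 led by *Cd248* and *Pi16*, and 106 (34.5 to 248) in the 17 led by *Wif1*, *Comp* and *Chad*. The healthy levels in these groups were 69.6, 12.8 and 22.9, and the 2-week ratios were 5.66 (3.00 to 10.9) in the *Thbs4*-led and 18.2 (10.3 to 31.4) in the *Cd248*-led cells, intervals that overlap. At 12 weeks *Lox* was 37.9 CPM in the *Thbs4*-led (2 UMIs), 43.1 in the *Cd248*-led (13 UMIs) and 0 in the *Wif1*-led cells. The 13 FBs led by *Cxcl14* and *Hsd11b1* had 135 CPM (4 UMIs), against 36.0 in such cells at 0 weeks (7 UMIs). So the *Thbs4*-led cells were the highest of these groups at 0 and 2 weeks but not at 12 weeks. In the *Thbs4*-led cells *Loxl1* was 483 CPM at 0 weeks and 1458 at 2 weeks, a ratio of 3.02, and *Loxl3* went from 50.2 to 277, a ratio of 5.51. *Loxl2* was 484 in the *Cd248*-led and 466 in the *Thbs4*-led FBs at 2 weeks, with ratios of 2.32 and 1.63. The 2-week difference in *Lox* was therefore found in more than 1 of these marker-led groups, on few cells. *Lox* UMIs lay in 11 of the 22 *Thbs4*-led, 7 of the 32 *Cd248*-led and 4 of the 17 *Wif1*-led cells. Most cells of the first 2 groups held *Postn* (21 of 22 and 25 of 32), so the groups are not independent of the split by *Postn*.

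Mural cells held *Lox* at all 3 phases. It stood at 81.3 CPM (65.9 to 99.2; 97 UMIs in 346 cells), 62.1 (32.1 to 109; 12 UMIs in 60 cells) and 78.5 (33.9 to 155; 8 UMIs in 36 cells) at 0, 2 and 12 weeks, and the 3 intervals overlap. The 8 UMIs at 12 weeks lay in 2 cells, 1 of which held 7, so that level rests on 1 cell. The share of mural cells with a *Lox* UMI was 15.3%, 15% and 5.56% at 0, 2 and 12 weeks. The 2-week ratio was 0.764 (0.382 to 1.40), and 5.47% of genes were 2-fold higher in mural cells at 2 weeks and 13% that much lower. Healthy mural cells thus held more *Lox* in CPM than healthy FBs, and at 2 weeks FBs held more than mural cells.

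Within the mural class *Lox* was higher in smooth muscle-like cells. Cells led by *Myh11*, *Acta2*, *Tagln* and *Cnn1* (279 over the 3 libraries) held 110 of its 117 mural UMIs at 115 CPM (94.8 to 139), and cells led by the pericyte markers *Rgs5*, *Kcnj8*, *Abcc9*, *Vtn* and *Higd1b* (159 cells) held 7 at 13.4 (5.37 to 27.5), a ratio of 8.64 (4.05 to 22.0). *Loxl2* was the other way round, with 68.7 CPM (48.1 to 95.1) in pericyte-like cells and 25.2 (16.1 to 37.4) in smooth muscle-like cells, a ratio of 0.366 (0.209 to 0.631). That order was seen at 0 weeks (29 and 20 UMIs, ratio 0.421) and at 2 weeks (7 and 3 UMIs, ratio 0.153). At 12 weeks pericyte-like cells had 0 and smooth muscle-like cells 1 *Loxl2* UMI, too few to order them. *Loxl1* had 25 UMIs in smooth muscle-like and 5 in pericyte-like cells, a ratio of 2.75 (1.03 to 9.19) that comes from the healthy library (21 and 1 UMIs) and lay below 1 at 2 weeks (2 and 1 UMIs; 0.713) and at 12 weeks (2 and 3 UMIs; 0.216). *Loxl3* had 12 and 6 UMIs. The FB level of *Lox* at 2 weeks, 225 CPM, was above that of the smooth muscle-like cells. The mural check genes, which are not in the class gate, summed to 389 CPM in those FBs and to 20025 in 2-week mural cells. They include *Acta2* and *Tagln*, which also picked the smooth muscle-like cells, so they are not compared there. The part of mural RNA in the FB value was not tested.

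ECs as a class held little of the family, and what *Lox* they held was in few cells. *Lox* was 11.3, 12.1 and 27.2 CPM at 0, 2 and 12 weeks (35, 41 and 13 UMIs), with a 2-week ratio of 1.07 (0.665 to 1.73) and a 12-week ratio of 2.41 (1.17 to 4.67). Among all genes of ECs 4.23% were 2-fold higher and 5.89% 2-fold lower at 2 weeks, and 9.24% and 8.48% at 12 weeks. Of the 89 *Lox* UMIs in ECs 50 lay in 73 cells, 2.33% of the class, in which *Npr3*, *Cytl1* and *Plvap*, markers of the endocardium that lines the chambers, had the most UMIs. Such cells were 41 of 1056, 14 of 1777 and 18 of 304 ECs at 0, 2 and 12 weeks, so the class ratios mix the level per cell with the make-up of the class.

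These endocardial-like ECs held *Lox* at 244 CPM (181 to 322), and 26 of the 73 (35.6%) had a UMI. Capillary-like ECs, the bulk of the class with 2351 cells, had 6 UMIs, or 1.10 CPM (0.403 to 2.39), a ratio of 222 (95.2 to 634). Arterial-like ECs were in between at 31.8 (18.5 to 50.8), beside venous-like ECs at 25.3 (10.2 to 52.1), and lymphatic-like ECs had 0 UMIs in 44 cells, which allows up to 26.6 CPM. The order of levels was therefore endocardial, then arterial and venous, whose intervals overlap, then capillary.

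The endocardial-like cells had *Lox* in each library, at 210 CPM (138 to 306; 41 cells) at 0 weeks, 551 (321 to 882; 14 cells) at 2 weeks and 132 (48.5 to 288; 18 cells) at 12 weeks. The 2-week interval lies above the other two, with a ratio to healthy of 2.62 (1.34 to 4.99), and the 12-week ratio was 0.629 (0.212 to 1.56). The share of these cells with a *Lox* UMI was not higher at 2 weeks, at 17 of 41 (41.5%), 5 of 14 (35.7%) and 4 of 18 (22.2%), and the 2-week level rests on 17 UMIs in 5 cells. *Cytl1* led the group, with a UMI in 87.7% of these cells and 2.68% of other ECs, and *Plvap* (34.2% against 2.97%) and *Npr3* (16.4% against 0.457%) went with it. The 3 FB collagens summed to 78.1 and the mural check genes to 107 CPM in them, beside 45.2 and 58.0 in capillary-like ECs.

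*Loxl2* had another place among ECs. Lymphatic-like ECs, marked by *Prox1*, *Lyve1*, *Ccl21a* and *Mmrn1*, held it at 115 CPM (61.3 to 197; 13 UMIs in 11 of 44 cells), 13.7 times (6.78 to 25.7) the 8.42 of capillary-like ECs. Endocardial-like ECs had 0 *Loxl2* UMIs, which allows up to 14.6 CPM. So the EC subclass with the most *Lox* had no *Loxl2* UMI, and the one with the most *Loxl2* had no *Lox* UMI. *Loxl3* had 6 UMIs in all ECs, 3 of them in lymphatic-like cells.

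**Figure D4:**
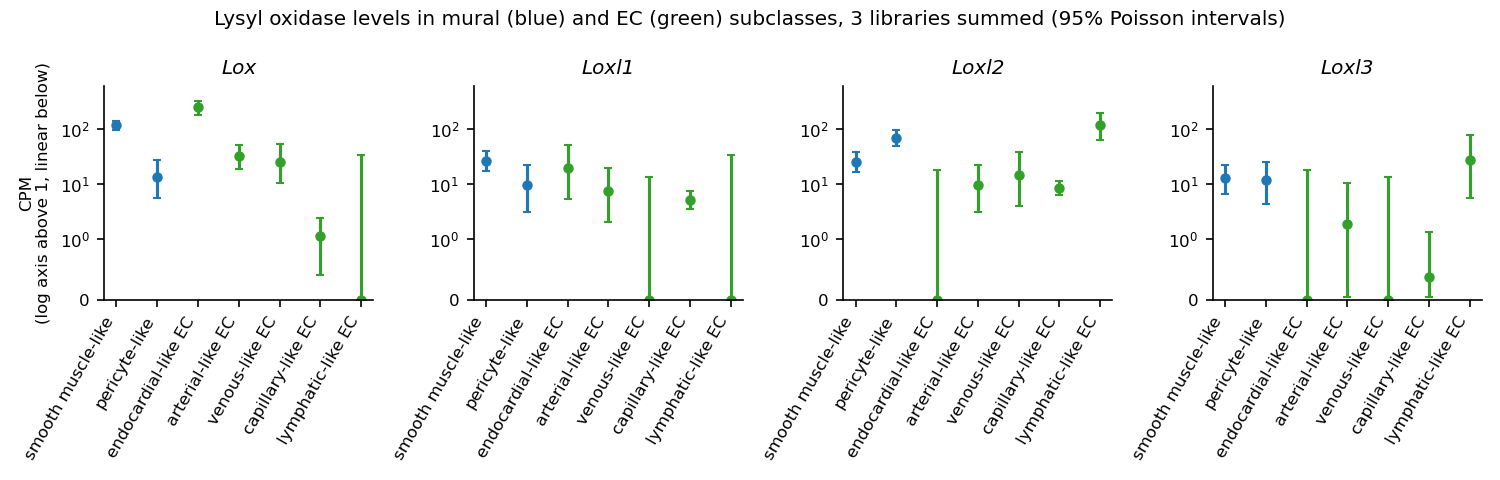
Level of each gene (CPM, log axis above 1 and linear below) in smooth muscle-like cells, pericyte-like cells and 5 EC subclasses over the 3 libraries summed, with 95% Poisson intervals. *Lox* is highest in endocardial-like ECs (244) and smooth muscle-like cells (115), and *Loxl2* in lymphatic-like ECs (115) and pericyte-like cells (68.7).

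*Loxl1* outside FBs was low and followed another pattern. It stood at 8.07, 1.47 and 20.9 CPM in ECs and at 13.7, 0 and 24.2 in blood cells at 0, 2 and 12 weeks, so both classes were lowest at 2 weeks, when FBs were highest. FBs made up 31.9%, 4.17% and 23.7% of the cells of these libraries. Per 100 UMIs of the 3 collagens, *Loxl1* had 8.93 UMIs in FBs, 11.3 in ECs and 15.6 in blood cells at 0 weeks, 7.16 in FBs and 6.02 in ECs at 2 weeks, and 10.8, 41.7 and 34.6 at 12 weeks. *Lox* had 0.317 in FBs and 15.8 in ECs at 0 weeks, and 1.56 and 49.4 at 2 weeks. The *Loxl1* values of ECs at 2 and 12 weeks rest on 5 and 10 UMIs, and the part of free RNA in the EC and blood values was not tested.

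Cross-linking depends on other gene products, and 54 of them were followed in FBs in 7 lists by role, of which 51 had at least 20 UMIs. At 2 weeks 16 of the 51 were at least 2-fold higher and 2 at least 2-fold lower than at 0 weeks, with a median log2 ratio of 0.64, beside 9.73% and 14.5% and a median of -0.02 over all genes. At 12 weeks 3 of the 51 were at least 2-fold higher and 3 at least 2-fold lower, with a median of -0.07. Over all genes 6.84% were that much higher and 7.16% that much lower, with a median of 0.02, so these counts are near the background.

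The substrates came first. All 5 fibrillar collagen genes were 2-fold higher at 2 weeks, in a narrow band from *Col5a2* at 2.33 (1.97 to 2.73) to *Col3a1* at 2.55 (2.42 to 2.68), and none was 2-fold changed at 12 weeks (median log2 ratio -0.45). *Lox* and *Loxl3* thus had larger 2-week ratios than the collagens, and *Loxl1* and *Loxl2* had smaller ones whose intervals overlap that of *Col5a2*. Per 100 UMIs of the 3 collagens, *Lox* in FBs went from 0.317 to 1.56 and 0.845 and *Loxl3* from 0.531 to 1.18 and 1.80, while *Loxl2* went from 3.34 to 2.69 and 2.35. Of the 11 elastic fibre genes measured 4 were 2-fold higher, led by *Eln* (elastin) at 2.65 (2.33 to 3.00), and the smallest ratio was that of *Mfap5*, a microfibril protein, at 0.843 (0.766 to 0.927).

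Genes for processing of the proenzyme were divided. *Postn* at 5.63 (5.25 to 6.03) had the largest ratio of that list and *Pcolce2*, a procollagen C-proteinase enhancer, the smallest at 0.491 (0.374 to 0.634); 2 of 6 measured genes were 2-fold higher. Of the 15 genes for lysine hydroxylation and collagen folding 3 were 2-fold higher, with *P3h2*, a prolyl 3-hydroxylase, at 2.37 (1.09 to 4.64) and *P4ha2*, a prolyl 4-hydroxylase subunit, at 0.552 (0.177 to 1.32) as the ends. The small proteoglycans and other fibril regulators had none of 5 past 2-fold, from *Dcn* (decorin) at 0.662 (0.636 to 0.690) to *Bgn* (biglycan) at 1.74 (1.65 to 1.83). *Dcn* is also 1 of the 6 FB gate markers, which were 13912 CPM in sum at 2 weeks and 19409 at 0 weeks.

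The enzymes need copper, which reaches them in the secretory pathway through the pump encoded by *Atp7a*. Of the 3 copper genes none was 2-fold higher: *Atp7a* was at 1.86 (0.715 to 4.06) on 7 UMIs and the importer *Slc31a1* at 0.448 (0.0532 to 1.68) on 2 UMIs, so neither is resolved at this depth. Among inducers and early targets of the transforming growth factor β pathway 2 of 6 were 2-fold higher, with *Ctgf* the largest at 8.17 (7.17 to 9.30) and *Hif1a* the smallest at 1.23 (0.690 to 2.04). At 12 weeks *Ctgf* was still 2.78 times (2.42 to 3.19) the healthy level, beside 1.97 for *Lox* and 2.50 for *Loxl3*.

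**Figure D5:**
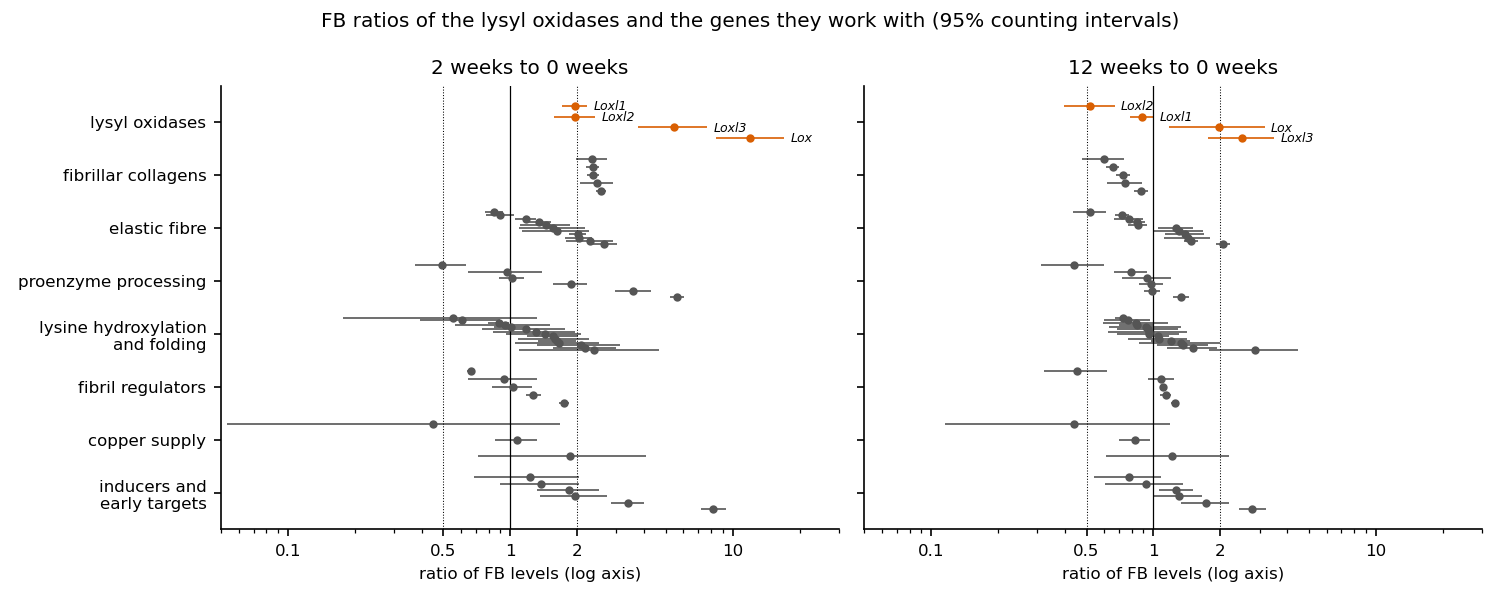
Ratio of FB levels at 2 weeks (left) and 12 weeks (right) to 0 weeks (log axis, dotted lines at 0.5 and 2) for the 4 lysyl oxidases (orange) and the 51 related genes (grey) by role, with 95% counting intervals. At 2 weeks the 5 collagens stand close together from 2.33 to 2.55, between *Loxl1* and *Loxl2* on their left and *Loxl3* and *Lox* on their right.

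Over the 12 values of 4 classes and 3 phases, the genes with the pattern most like each member were listed by Pearson's r of log2(CPM + 1) among 11605 genes with at least 50 UMIs. The 12 values share 3 libraries, so r is a description. For *Loxl1* they were *Col6a2* (0.986), *Entpd2*, *Mmp2*, *Abca8a* and *Islr*, and for *Loxl2* *Col12a1* (0.989), *Slc1a4*, *Col1a2* and *BC034090*. For *Lox* they were *Tead1* (0.932), *Farp1*, *Dnajc10*, *Neo1* and *Arl2*, and for *Loxl3* *Vasn* (0.939), *Clip3*, *Acaa1a*, *Plxdc1* and *Oaf*. Among themselves *Loxl1* and *Loxl2* were most alike (0.844), and *Lox* was nearer to *Loxl3* (0.717) than to *Loxl1* (0.600) or *Loxl2* (0.597).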

How the data were processed

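Per the labels, the authors counted UMIs with Cell Ranger 2.0.0 on mm10 (Chromium Single Cell 3′ v2); the deposited values are raw UMI counts per gene and cell barcode of 3 libraries, not normalised. Barcodes with under 200 detected genes were left out (8, 8 and 10), and no doublet caller was run; 352 cells (5.09%) whose leading class had under 70% of marker UMIs were set aside as mixed, and a class needed at least 2 marker UMIs. The libraries shared 5, 1 and 3 barcodes, none between FBs. Counts were summed per class and library and given as CPM with exact Poisson intervals, ratios with conditional binomial intervals, and shares of cells with exact Clopper-Pearson intervals (95%). A count of 0 is given with the limit of 3 counts. Classes were rebuilt here and may differ from the clusters of the study. Subclasses were taken by the marker list with the most UMIs (at least 2, no tie). Background shares cover genes that had 20 UMIs or more when both groups were added. With 1 library per phase no test was run and edgeR or like models were not used. Replicates do not exist, so neither does an SD. Members, marker lists, role lists and alternatives were chosen with earlier results of these data known; of each role list the largest and smallest ratio are named, plus members with the 5 most similar genes, of which 1 is not reported here. Python 3.11.15, numpy 2.4.6 and scipy 1.17.1 were used, and the ratio code was tested on simulated counts. Positions are from GENCODE M21. Total UMIs kept were 12287823, 4465929 and 1712728.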

Additional observations from a re-analysis of the deposited data

Results flagged for a closer look

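Samples far from others were not sought, each phase being 1 library. *Loxl1* differed in direction between classes at 2 weeks against 0 weeks: the ratio was 1.95 in FBs, 0.183 (0.0546 to 0.486) in ECs and 0 in blood cells (0 against 38 UMIs, an upper bound of 0.677). *Loxl2* did so too, at 1.96 in FBs and 0.574 (0.341 to 0.95) in ECs. The differences between classes were not tested. *Lox* in Postn-positive against Postn-negative FBs was 6.20 at 2 weeks and 0.350 at 12 weeks, a difference in direction that was not tested and that rests on 2 UMIs at one end and 8 at the other.

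Cells outside the 4 classes held family UMIs above the limit of 3 counts. The 352 mixed cells had *Lox* at 36.8, *Loxl1* at 51.7, *Loxl2* at 54.8 and *Loxl3* at 11.8 CPM. The 74 neural cells had *Loxl1* at 39.5, *Loxl2* at 65.9 and *Loxl3* at 39.5 CPM, from 6, 10 and 6 UMIs, and no *Lox* UMI.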

How the results depend on the processing

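No paired analysis was possible because each phase is 1 library. The 8 phase ratios of *Lox*, *Loxl1*, *Loxl2* and *Loxl3* in FBs were recomputed under 8 alternatives, and 63 of 64 values stayed within the counting interval reported; *Lox* at 2 weeks ranged from 10.6 to 12.6 and *Loxl3* from 4.82 to 6.41. With cells under 1000 UMIs left out and the others given equal weight, the log2 ratio of *Loxl1* at 12 weeks was 0.034. Of 132 values for the split by *Postn* 126 stayed. Some of these intervals are wide, such as 1.64 to 52.4 for *Lox* and 0.680 to 5.61 for *Loxl3* at 2 weeks, so staying within them says little. *Lox* at 2 weeks ranged from 2.63, with cells under 1000 UMIs left out and the others given equal weight, to 11.2. With FBs over 10% mitochondrial UMIs left out, the log2 ratio of *Loxl1* at 2 weeks was 1.56. With *Postn* called after thinning, it was 0.078 for *Loxl1* at 12 weeks and 2.01 for *Loxl2* at 2 weeks. With FBs split by *Thbs4*, *Cilp* or *Ddah1*, *Lox* at 12 weeks reversed to a log2 ratio of 1.34, and *Loxl1* at 12 weeks was 0.24 and *Loxl2* at 0 weeks 0.36. With no filter and 0.5 UMIs added, 4763 of 15507 genes were 2-fold higher at 2 weeks and 3759 of 15790 at 12 weeks, against 967 of 9941 and 695 of 10166. The causes were not tested.

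Depth limits the 2-week FBs most: 93 cells, 58 *Lox* UMIs and 2 of these in Postn-negative cells. Intervals leave out variation between mice, which 1 library per phase cannot show, and the counts are of UMIs, not of PCR reads.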
